A study of Bos taurus with 48 samples.

Results

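The comparison described here is that of ad libitum against restricted feeding in the mammary parenchyma of cows, the tissue of the udder that holds the epithelial ducts. Its members are the parenchyma samples labelled with either treatment, which were 12 of the 48 samples in the series: 6 with milk replacer ad libitum and 6 with a restricted amount of it. MiRNAs were measured by small RNA sequencing of tissue taken at slaughter, and the values are normalised read counts per mature miRNA. The 3 control parenchyma samples were not part of the comparison, and the mammary fat pad and liver of both feeding groups, with 6 samples per group and site, were used only to place the result. The labels give neither breed, age nor the length of feeding, and they do not say whether samples with the same number came from the same animal. Samples are named below by feeding group and by the number in their title. Nothing in the labels says that the samples of a group came from separate animals, so the p-values measure only the spread between these samples, which may be technical.

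MiRNAs are short RNAs that guide Argonaute proteins to messenger RNAs, mostly through base pairs with the seed near their 5′ end, and so lower the output of their targets. In the growing udder the ducts branch into a fat pad, and the tissue piece holds epithelium, fibroblasts, vessels, fat cells and blood in proportions that differ between pieces. The miR-200 and miR-183 families are known as miRNAs of epithelium, miR-143 and miR-145 of smooth muscle, miR-126 of endothelium, and miR-451 of red blood cells. MiR-378 lies in an intron of a gene for a co-activator of energy metabolism in mammals and is linked to fat cells in mouse. MiR-146a is a brake on signalling through innate immune receptors in mouse and human. In bulk tissue, fewer cells of a type and less RNA per cell cannot be told apart.

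The mature sequences of 3 miRNAs named below are shown. They were chosen among miRNAs whose sequence the study lists, and none differed between the feeding groups past the threshold. MiR-433 is among those with the lowest p. MiR-451 is a red blood cell miRNA that was highest in the sample that stood apart most, and miR-375 is an epithelial marker that was high in 2 restricted samples. The sequences are the canonical ones that the study lists beside its assays under human assay names. They are written as DNA from 5′ to 3′, with the seed (bases 2 to 8) in capitals.
bta-miR-375: tTTTGTTCgttcggctcgcgtga
bta-miR-433: aTCATGATgggctcctcggtgt
bta-miR-451: aAACCGTTaccattactgagttt
The 3 seeds differ from each other, so that none of these miRNAs shares a seed with another of the set.

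The estimated number of miRNA reads ranged from 6193678 to 11291532 in the ad libitum samples and from 6612566 to 9303352 in the restricted samples, and the smallest value above 0 stood for 6 reads in every library. For a listed 0 the number of reads can thus lie anywhere up to 5. The table holds 524 miRNAs, of which 340 were above 0 in all 12 samples, 34 were listed at 0 in all 12, and 333 had the mean value of at least 10 required for the test. The label was checked against 11 epithelial miRNAs. Their mean log2(value + 1) lay between 10.79 and 11.68 in the 12 samples, against 0.76 to 3.17 in the 16 fat pad samples. In the 3 control parenchyma samples it lay between 2.77 and 3.90, so that the control pieces carried little of the epithelial signal that all 12 fed samples had.

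No miRNA differed between ad libitum and restricted parenchyma past the threshold. In limma, with Benjamini-Hochberg adjustment over the 333 miRNAs tested, 0 had an adjusted p of at most 0.05 (0%), and the lowest adjusted p was 0.900. At an unadjusted p under 0.05 there were 11 miRNAs (3.3%), of which 7 were higher and 4 lower in ad libitum parenchyma. No miRNA had feeding groups that did not overlap (0 of 333, 0%). The fitted changes were small: the median absolute log2 fold change was 0.19, and 303 of the 333 (91.0%) lay within 0.5 of no change on the log2 scale. There were 181 miRNAs with a higher and 152 with a lower fitted value in ad libitum samples, with a median log2 fold change of 0.05. When each sample was rescaled to the same sum, the median became 0.12 and the split became 195 higher and 101 lower among 296 tested. That sum was 1000000, below the deposited sums, and the minimum mean of 10 was applied after rescaling. Here and below, counts after rescaling thus reflect a stricter filter as well as the scaling.

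The size of change that these samples could have shown depended on the level of the miRNA. The standard error of the log2 fold change had a median of 0.26 and ranged from 0.12 to 1.73. For a miRNA to pass the threshold on its own among 333 tests, it needed an unadjusted p of 1.5e-04, and the median change needed for this was 1.28 on the log2 scale, or 2.42-fold. Only 82 miRNAs (24.6%) would have passed with a change under 2-fold, and 295 (88.6%) with one under 4-fold. None would have passed with a change under 1.5-fold. For a power of 80% the median detectable change was 2.92-fold, and it was under 2-fold for 27 miRNAs and under 4-fold for 255. Abundant miRNAs were measured more closely. Among 61 miRNAs with a mean value of 10 to 50 the median change needed was 3.65-fold, among 93 at 50 to 500 it was 2.66-fold, among 109 at 500 to 5000 it was 2.25-fold, and among the 70 at 5000 and over it was 1.85-fold.

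**Figure D1:**
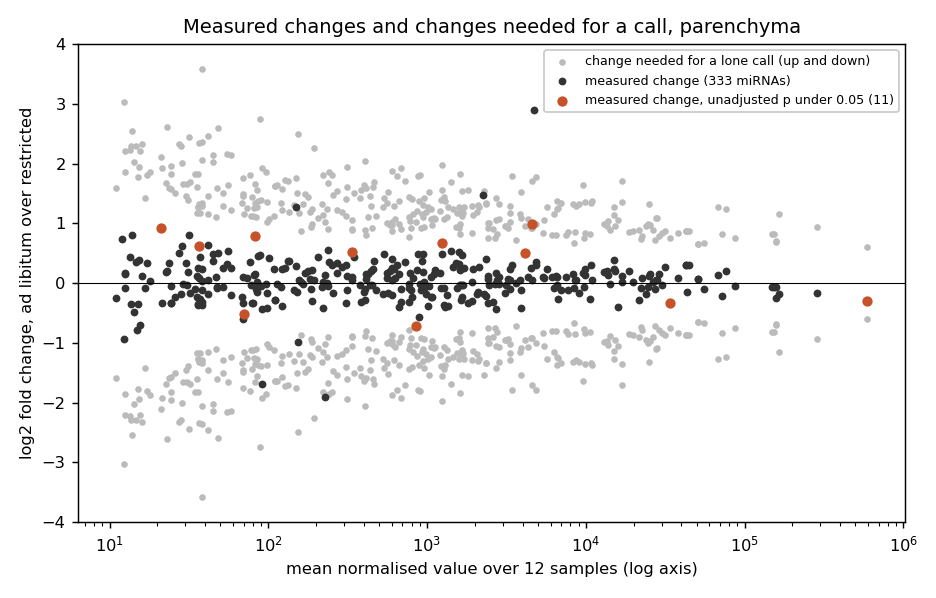
Log2 fold change of ad libitum over restricted parenchyma (y axis) against the mean normalised value over the 12 samples (x axis, log scale) for 333 miRNAs, with the change each would need for a lone call in grey, above and below 0. The measured changes lie inside the grey band, which narrows as the level rises, and 9 of the needed changes in each direction fall outside the axis limit of 4.

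The same errors set upper limits to the changes that the data leave room for. The 95% confidence interval of the fold change lay within 2-fold in both directions for 253 of the 333 miRNAs (76.0%), within 1.5-fold for 86, and within 4-fold for 323. These intervals hold for 1 miRNA at a time. Intervals widened to hold for all 333 together (Bonferroni) lay within 2-fold for 42 and within 4-fold for 263. With the single intervals, all 70 miRNAs with a mean of 5000 and over had an interval within 2-fold, as did 88 of 109 at 500 to 5000, 69 of 93 at 50 to 500 and 26 of 61 at 10 to 50. No miRNA reached the change that it needed, and the one that came nearest reached 69.7% of it.

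The tightest measurements belonged to abundant miRNAs. MiR-99a-5p had the smallest standard error, at 0.12, and was also the most abundant miRNA in every sample. MiR-221, which targets a cyclin-dependent kinase inhibitor in human cells, had a median of 8340 in ad libitum samples (7324 to 9648) and of 8786 in restricted samples (7789 to 9284), and its log2 fold change was −0.08 ± 0.13 (SE). MiR-27b, a regulator of lipid metabolism in mouse, had medians of 53712 and 55149 in ad libitum and restricted samples and a log2 fold change of −0.11 ± 0.13 (SE). MiR-125b-1 had medians of 54659 and 49985, with a log2 fold change of 0.07 ± 0.13 (SE). For each of these 3 miRNAs the ranges of the feeding groups overlapped.

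The miRNA with the lowest p was miR-146a. Its values were 602, 546, 973, 675, 449 and 643 in ad libitum samples 3, 6, 7, 9, 11 and 15, against 1094, 1295, 801, 823, 1248 and 1058 in restricted samples 4, 5, 8, 10, 13 and 16. The groups overlapped through 1 sample, ad libitum 7, and the other 5 ad libitum samples were below every restricted one. The log2 fold change was −0.72 ± 0.21 (SE), with a 95% interval of −1.15 to −0.28 and an unadjusted limma p of 0.00325. The change needed for a lone call was 2.04-fold.

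MiR-378-1 came next, at 5151, 3215, 4399, 3105, 14005 and 8264 in ad libitum samples 3, 6, 7, 9, 11 and 15, and 3047, 2609, 3572, 2536, 3654 and 1582 in restricted samples 4, 5, 8, 10, 13 and 16. Ad libitum 11 and 15 were far above all restricted samples, while 6 and 9 lay within their range. Its log2 fold change was 1.00 ± 0.34 (SE), with an unadjusted p of 0.0104. Another member of the miR-378 family, miR-378c, had a median of 92.6 in ad libitum samples (53.3 to 223) and 59.1 in restricted samples (33.7 to 71.5), with a log2 fold change of 0.78 ± 0.33 (SE). The family members have near-identical sequences and can share reads, so they are not independent.

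MiR-320a, which is processed without Drosha in mammals, had values of 5307, 5928, 3316, 3836, 6354 and 4527 in ad libitum samples 3, 6, 7, 9, 11 and 15. In restricted samples 4, 5, 8, 10, 13 and 16 it had 3351, 2987, 3364, 4558, 2967 and 3212. Restricted 10 stood above the other restricted samples and ad libitum 7 below the other ad libitum ones. The log2 fold change was 0.50 ± 0.19 (SE), with an unadjusted p of 0.0204.

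MiR-99a-5p is a member of the miR-99 and miR-100 family, whose targets in human cells include the kinase mTOR, a sensor of nutrients. It had 601422, 488397, 516013, 454222, 455560 and 685313 in ad libitum samples 3, 6, 7, 9, 11 and 15, against 697146, 805704, 647816, 566656, 561503 and 661409 in restricted samples 4, 5, 8, 10, 13 and 16. All restricted samples were above the 4 ad libitum samples 6, 7, 9 and 11. Its log2 fold change was −0.31 ± 0.12 (SE), with an unadjusted p of 0.0234, and it needed 1.52-fold, the smallest needed change of all.

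MiR-486, a miRNA of red blood cells and muscle, was at a median of 440 in ad libitum samples (236 to 496) and 267 in restricted samples (206 to 343). MiR-433, an imprinted miRNA whose sequence is given above, had 2035, 1765, 799, 907, 2023 and 1627 in ad libitum samples 3, 6, 7, 9, 11 and 15, and 1199, 687, 1604, 550, 1096 and 658 in restricted samples 4, 5, 8, 10, 13 and 16. Ad libitum 7 and 9 were within the restricted range. The log2 fold change was 0.53 ± 0.21 (SE) for miR-486 and 0.67 ± 0.31 (SE) for miR-433.

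The remaining low-p miRNAs had medians that differed by less than 2-fold. MiR-502 had medians of 45.2 in ad libitum and 28.9 in restricted samples, and miR-323b-3p, another miRNA of the imprinted cluster, 25.3 and 13.0. MiR-181c, of a family active in lymphocytes, had medians of 53.2 in ad libitum and 77.0 in restricted samples. MiR-200a, which keeps epithelium from turning mesenchymal by repressing ZEB factors, had 29405 in ad libitum and 37068 in restricted samples, with a log2 fold change of −0.33 ± 0.15 (SE). The unadjusted p of these 4 lay between 0.0314 and 0.0470, and each had an adjusted p of 0.900 in limma.

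**Figure D2:**
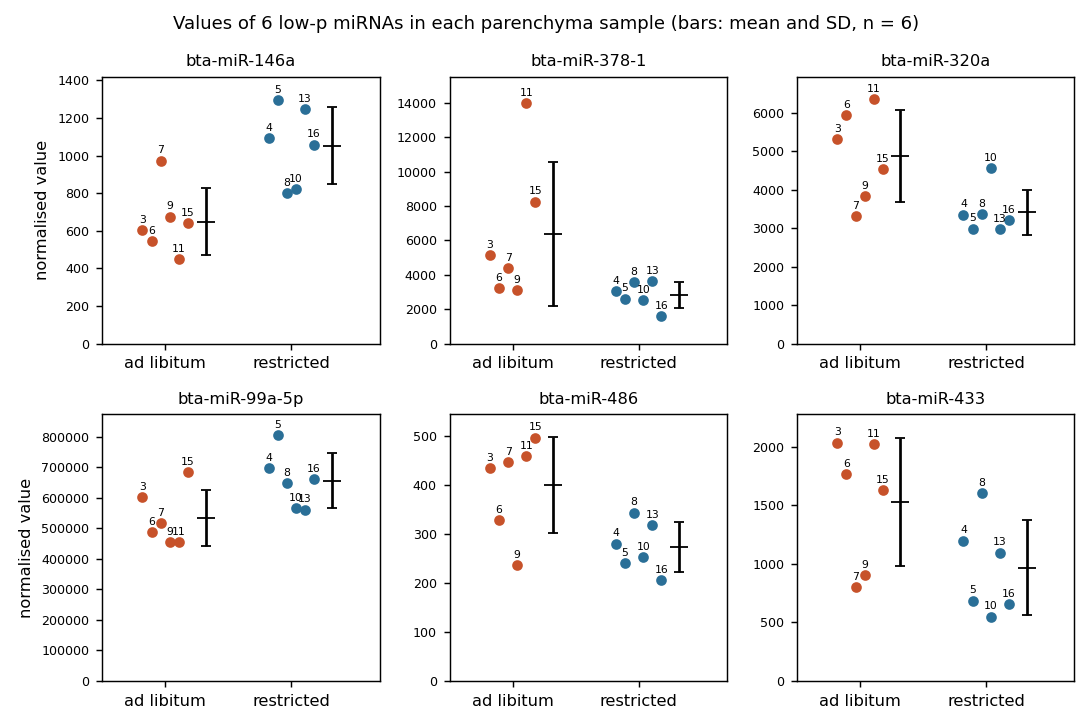
Normalised values (y axes, linear and starting at 0) of 6 of the miRNAs with the lowest p in each ad libitum (left, red) and restricted (right, blue) parenchyma sample, with the sample numbers beside the points and the mean and SD of the 6 samples as bars. In every panel at least 1 ad libitum sample lies within the range of the restricted samples, and for miR-146a it is only ad libitum 7.

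Of the 5 miRNA names with a fitted change over 2-fold, 4 traced to names in 1 library. Restricted 10 was the only one of the 48 libraries with a value above 0 for bta-miR-378, at 2715, and it was the only one listed at 0 for bta-miR-378-2, which had 1731 to 3929 in the other restricted samples and 3362 to 15227 in the ad libitum samples. It also had 1103 under bta-miR-450a and 0 under bta-miR-450a-1, but here it was not the only one, since bta-miR-450a was above 0 in 2 of the 48 libraries and bta-miR-450a-1 in 46. The fitted log2 fold changes were 2.89 for bta-miR-378-2, −1.90 for bta-miR-378, 1.47 for bta-miR-450a-1 and −1.68 for bta-miR-450a, each with an unadjusted p between 0.0901 and 0.361, and the copies that kept their name in restricted 10 gave 1.00 ± 0.34 for miR-378-1 and −0.21 ± 0.27 for miR-450a-2 (SE). When the values of numbered copies were summed, a choice made after seeing the data, miR-378 had a log2 fold change of 0.99 ± 0.33 (SE).

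The fifth name was miR-122, the miRNA of hepatocytes, with a median of 198 in ad libitum samples (14.9 to 506) and 49.6 in restricted samples (12.2 to 271). Its log2 fold change was 1.28 ± 0.87 (SE), and a lone call would have needed 20.3-fold. In the other direction miR-2285t had 73.1 in ad libitum samples (26.3 to 365) and 182 in restricted samples (83.1 to 333), with a log2 fold change of −0.98 ± 0.50 (SE). MiR-147 had medians of 57.9 in ad libitum and 85.1 in restricted samples and a log2 fold change of −0.60 ± 0.35 (SE). MiR-1306, with 318 in ad libitum (83.8 to 394) and 173 in restricted samples (121 to 293), had a log2 fold change of 0.55 ± 0.34 (SE). The groups overlapped for all of these.

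MiR-1247-5p and miR-2419-5p were the least precise of the miRNAs with a mean of at least 50 beside those already named. MiR-1247-5p ranged from 11.3 to 187 in ad libitum and from 31.6 to 82.5 in restricted samples, with a log2 fold change of 0.47 ± 0.55 (SE), and would have needed 6.68-fold. MiR-2419-5p ranged from 52.1 to 297 in ad libitum and from 66.1 to 337 in restricted samples, with a log2 fold change of 0.05 ± 0.45 (SE). In both, ad libitum 7 was the lowest sample of its group.

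After miR-99a-5p, the most abundant miRNA was miR-148a, which targets a DNA methyltransferase in human cells and is abundant in bovine milk, with medians of 255921 in ad libitum and 290025 in restricted samples. MiR-21-5p, a growth-linked miRNA, had 143341 and 172725 in ad libitum and restricted samples, and miR-26a had 138817 and 162599. MiR-143 of smooth muscle had 149917 in ad libitum and 165608 in restricted samples, and miR-199a-1-3p of fibroblasts 150779 and 164528. The ranges of the feeding groups overlapped for each. The log2 fold changes were −0.16 ± 0.19 for miR-148a, −0.19 ± 0.23 for miR-21-5p, −0.26 ± 0.14 for miR-26a, −0.07 ± 0.14 for miR-143 and −0.07 ± 0.16 for miR-199a-1-3p (SE). For miR-199a-1-5p and miR-126-3p they were −0.05 ± 0.15 and −0.22 ± 0.17, and for the imprinted miR-127 and miR-411a 0.20 ± 0.25 and 0.13 ± 0.25 (SE).

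Of the 8 quantities tested per sample, the share of the top miRNA had the lowest p but did not pass after adjustment. It reflects the level of miR-99a-5p, described above, and is not independent of that result. The share of all values taken by the top miRNA, miR-99a-5p in every sample, was 16.3% ± 1.4 in ad libitum samples and 19.1% ± 1.8 in restricted samples (SD, n = 6 each). The ranges were 14.7% to 18.6% in ad libitum and 17.8% to 22.6% in restricted samples, so that they overlapped. The exact permutation test over all assignments of the 12 samples, two-sided, gave p = 0.00649, and 0.0519 after adjustment over the 8 quantities tested. The 10 most abundant miRNAs took 50.4% to 59.0% in ad libitum and 55.1% to 62.5% in restricted samples, with an exact permutation p of 0.0541 (adjusted 0.150). Detected miRNAs, with a value of at least 2, numbered 389 to 414 in ad libitum samples and 386 to 415 in restricted samples, and the difference of means was −1 with an exact permutation p of 0.877. The estimated reads also did not differ past the threshold, with an exact permutation p of 0.816. No value of p under 0.00216 was possible in this design.

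On the first axis of variation among the 12 samples 1 sample stood apart, and on the second 2 samples did. The first principal component held 38.5% of the variance and the second 23.3%. On the first, restricted 10 scored −23.8 while the other 11 samples scored between 0.12 and 5.22, and its 4 largest loadings were those of bta-miR-378-2, bta-miR-378, bta-miR-450a-1 and bta-miR-450a, the names exchanged in that library. On the second component ad libitum 7 scored −11.7 and restricted 16 −9.49, against −1.88 to 8.02 for the rest. Ad libitum minus restricted was 4.16 on the first and 3.93 on the second component, with exact permutation p of 0.567 and 0.281.

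Ad libitum 7 was the highest or lowest of its feeding group for 209 of the 333 miRNAs, against 67 to 134 for the other 5 ad libitum samples. Its median distance from the group's median was 0.60 on the log2 scale, against 0.24 to 0.32 for those 5. Restricted 10 was at the extreme of its group for 174 miRNAs, against 70 to 122 for the other 5. MiR-451 was 1757 in ad libitum 7 against 350 to 621 in the other ad libitum samples, and miR-142-3p, a miRNA of white blood cells, was 1212 against 146 to 413. MiR-1 of striated muscle was 2298 in ad libitum 7 against 412 to 973 in the others. MiR-375, whose sequence is shown above, was 98.9 in restricted 10 and 88.7 in restricted 16, against 15.5 to 32.8 in the other restricted samples and 15.9 to 43.2 in the ad libitum samples. Whether blood or other tissue in the piece had a part in the profile of ad libitum 7 was not tested.

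**Figure D3:**
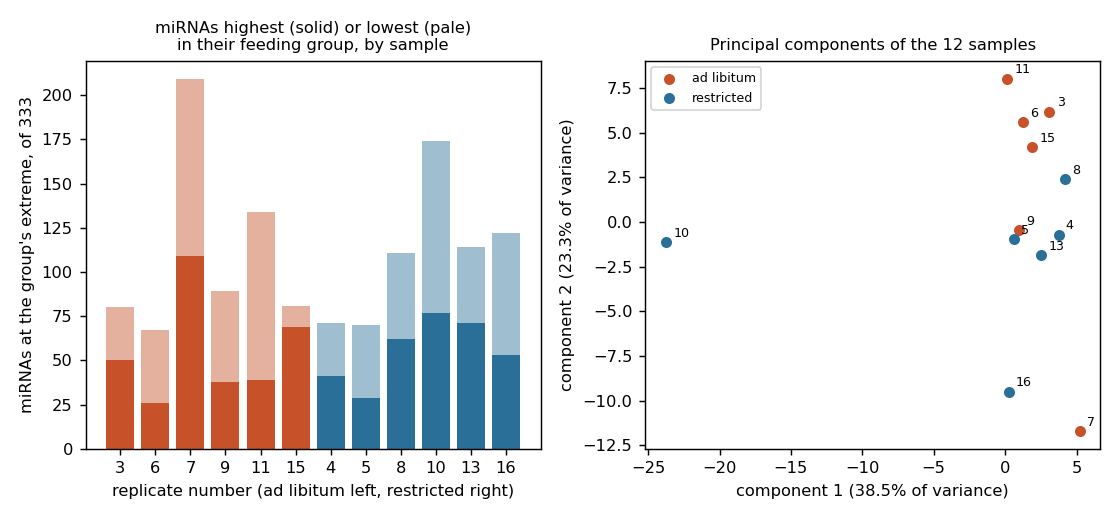
Left, the number of the 333 miRNAs (y axis) for which a sample was the highest (solid) or lowest (pale) of its feeding group, by replicate number, with ad libitum in red and restricted in blue. Ad libitum 7, with 209, and restricted 10, with 174, have the highest bars. Right, the scores of the 12 samples on the first component (x axis) and the second (y axis).

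The 2 samples that stood apart bore on the count of calls. Without ad libitum 7 there were still 0 calls in limma, but 60 miRNAs had an unadjusted p under 0.05, and these held 10 of the 11 from all 12 samples. The lowest adjusted p was then 0.0921, shared by miR-146a (log2 fold change −0.84) and 5 other miRNAs. When both ad libitum 7 and restricted 10 were left out, a choice made after seeing the data, 7 miRNAs passed: miR-146a was lower in ad libitum samples, and miR-1249, miR-1306, miR-197, miR-320a, miR-484 and miR-92b were higher. With all 12 samples kept and each given limma's quality weight, 6 passed, of which 5 were among these 7, and the sixth was miR-502. These weights are set by how far a sample lies from its own feeding group in the same values, not by a separate measure of quality. The overlap is thus not independent of leaving those 2 samples out. The weight was 0.199 for ad libitum 7 and 0.340 for restricted 10, and 0.492 to 2.53 for the others. Without restricted 10 alone there were 0 calls and 9 at an unadjusted p under 0.05.

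These miRNAs were named after their values were seen. MiR-1249 was at 42.2, 44.3, 6.2, 54.2, 42.8 and 60.1 in ad libitum samples 3, 6, 7, 9, 11 and 15, against 29.0, 16.4, 17.3, 41.7, 14.3 and 11.1 in restricted samples 4, 5, 8, 10, 13 and 16. Ad libitum 7 was the lowest of all 12 and restricted 10 the highest of the restricted samples, close to ad libitum 3. MiR-484 had 1629, 2368, 829, 1758, 2716 and 2139 in the ad libitum samples in the same order, and 1065, 1286, 1018, 1675, 1279 and 1276 in the restricted samples. MiR-92b, of the miR-25 and miR-92 seed family, had 468, 537, 134, 382, 576 and 389 in the ad libitum samples and 256, 216, 292, 377, 297 and 260 in the restricted samples. MiR-197 had 1092, 855, 247, 916, 982 and 932 in the ad libitum samples and 613, 607, 556, 1032, 606 and 336 in the restricted samples, and miR-1306 had 295, 341, 83.8, 268, 394 and 363 against 165, 162, 192, 293, 181 and 121. In these 5 miRNAs ad libitum 7 was below every restricted sample and restricted 10 was the highest restricted one. In miR-320a and miR-502 restricted 10 was again the highest restricted sample, but ad libitum 7 lay above 3 of the restricted samples. The log2 fold changes with all 12 samples were 0.80 ± 0.49 for miR-1249, 0.52 ± 0.26 for miR-484 and 0.43 ± 0.30 for miR-92b, and without both samples they were 1.47 ± 0.28, 0.82 ± 0.17 and 0.82 ± 0.17 (SE).

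The lists of miRNAs by role, described next, each held 0 members past the threshold in limma, as did all 333 miRNAs. Of the 11 epithelial miRNAs, 5 had a higher and 6 a lower fitted value in ad libitum parenchyma, with a median log2 fold change of −0.20, against 0.05 over all 333. Beside miR-200a, miR-141 of the same family had medians of 625 in ad libitum (456 to 1095) and 1076 in restricted samples (590 to 1533), and its log2 fold change was −0.57 ± 0.27 (SE). MiR-31, which lies outside that family, had 1932 in ad libitum and 1291 in restricted samples, with a log2 fold change of 0.47 ± 0.24 (SE). The list median was −0.01 without ad libitum 7 and restricted 10, and 0.09 with quality weights. It was −0.25 without ad libitum 7 alone, −0.03 without restricted 10 alone and −0.12 after rescaling to the same sum.

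The miRNAs of stroma and vessels had small fitted changes. Of 8 stromal and smooth muscle miRNAs, 2 were higher and 6 lower, with a median of −0.06, and after rescaling to the same sum 6 were higher and 2 lower. MiR-199b had a log2 fold change of −0.28 ± 0.18 and miR-214 of 0.30 ± 0.20 (SE). Both arms of endothelial miR-126 were lower, at −0.22 ± 0.17 for miR-126-3p and −0.39 ± 0.25 for miR-126-5p (SE). MiR-126-5p was 2146 in ad libitum 7, above the 683 to 1236 of the other ad libitum samples.

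The miRNAs linked to fat cells had the highest list median. Of 9, 7 were higher and 2 lower in ad libitum parenchyma, with a median log2 fold change of 0.35. Of these 9, 1, miR-378c, had an unadjusted limma p under 0.05. The list holds miR-378 only as the copy miR-378-2, which was listed at 0 in restricted 10. The copy miR-378-1, outside the list, had an unadjusted limma p of 0.0104. MiR-193a-5p had medians of 141 in ad libitum and 104 in restricted samples and a log2 fold change of 0.37 ± 0.24 (SE). The mean log2(value + 1) of the list was highest in ad libitum 11, at 8.01, and ad libitum 15, at 7.93, against 6.99 to 7.44 in the other ad libitum samples and 6.80 to 7.25 in the restricted samples other than restricted 10. Restricted 10 had 6.01, with miR-378-2 counted at 0 while 2715 stood under bta-miR-378, a name outside the list. Without restricted 10 the split was 6 higher and 3 lower, with a median of 0.46, and without ad libitum 7 it was 7 and 2, with a median of 0.43.

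The miRNAs of blood, immune cells and muscle had medians close to that of all miRNAs. Of 10 immune cell miRNAs, 5 were higher and 5 lower, with a median of −0.00, and after rescaling 7 were higher and 3 lower. The list contains miR-146a (−0.72), described above, the only 1 of the 10 with an unadjusted limma p under 0.05. MiR-142-3p had a log2 fold change of −0.29 ± 0.41, miR-146b of 0.15 ± 0.26 and miR-181a-1 of −0.07 ± 0.20 (SE). The 2 erythroid miRNAs went opposite ways, with miR-451 at −0.32 ± 0.39 beside miR-486 (SE). Of 3 striated muscle miRNAs, miR-1 had a log2 fold change of −0.02 ± 0.36, miR-499 of −0.33 ± 0.29 and miR-133a of 0.16 ± 0.24 (SE). Of 4 miRNAs of liver and gut, 3 were higher and 1 lower, and beside miR-122 the log2 fold changes were 0.05 ± 0.16 for miR-192, −0.12 ± 0.18 for miR-194-2 and 0.17 ± 0.30 for miR-215 (SE).

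Growth and nutrient lists were described next. Of the 13 miRNAs of the proliferation-linked miR-17-92 cluster and its paralogs, 4 were higher and 9 lower, with a median of −0.07, and after rescaling 7 were higher and 6 lower. MiR-92a-1 had a log2 fold change of 0.21 ± 0.19, against −0.38 ± 0.25 for miR-19b, −0.42 ± 0.36 for miR-19a and −0.23 ± 0.21 for miR-106b (SE). Of 12 miRNAs that act as brakes on the cell cycle, 5 were higher and 7 lower, with a median of −0.06, and among them miR-497 had −0.04 ± 0.16, miR-15a −0.34 ± 0.29, miR-424-3p 0.26 ± 0.24 and miR-424-5p −0.32 ± 0.31 (SE). Of 10 let-7 miRNAs, 6 were higher and 4 lower, with a median of 0.10, and after rescaling 8 were higher and 2 lower. The guide strand let-7a-2-5p was at 0.30 ± 0.17 and let-7e at 0.34 ± 0.19, while the passenger strand let-7a-1-3p was at −0.32 ± 0.18 (SE).

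Of 19 miRNAs tied to insulin signalling or nutrient state in mouse or human, 3 were higher and 16 lower in ad libitum parenchyma, with a median of −0.17. MiR-26b, which with miR-26a shares a seed family linked to insulin response, had 12802 in ad libitum (10641 to 20973) and 18530 in restricted samples (12057 to 25079), with a log2 fold change of −0.40 ± 0.21 (SE). After rescaling, 7 of 16 were higher and 9 lower, and without restricted 10 it was 6 of 19 higher and 13 lower. Of 21 miRNAs of milk or mammary development, 10 were higher and 11 lower, with a median of −0.01, and after rescaling 14 were higher and 7 lower. Among them 1, miR-99a-5p, had an unadjusted limma p under 0.05. MiR-30d had a log2 fold change of 0.28 ± 0.17 and miR-132, studied in mammary duct growth in mouse, of 0.49 ± 0.36 (SE).

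The list for the imprinted DLK1-DIO3 cluster was the largest. Of the 49 miRNAs of the list that were tested, 37 were higher and 12 lower in ad libitum parenchyma. Their median log2 fold change was 0.17. The list does not hold every miRNA of the cluster: miR-323b-3p, named above with a log2 fold change of 0.92, is outside it. MiR-432 had a log2 fold change of 0.49 ± 0.26 and miR-485 of 0.43 ± 0.21 (SE). The members are transcribed together and are not independent. The mean log2(value + 1) of the list was 8.28 in restricted 10, 8.49 in restricted 16 and 8.81 in restricted 5. These means were below the 8.97 to 9.50 of the ad libitum samples. Restricted 4, 8 and 13 had 9.54 to 9.62, above all ad libitum samples. Without restricted 10 the split was 25 higher and 24 lower, and the median was 0.00, and with quality weights 20 were higher and 29 lower.

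**Figure D4:**
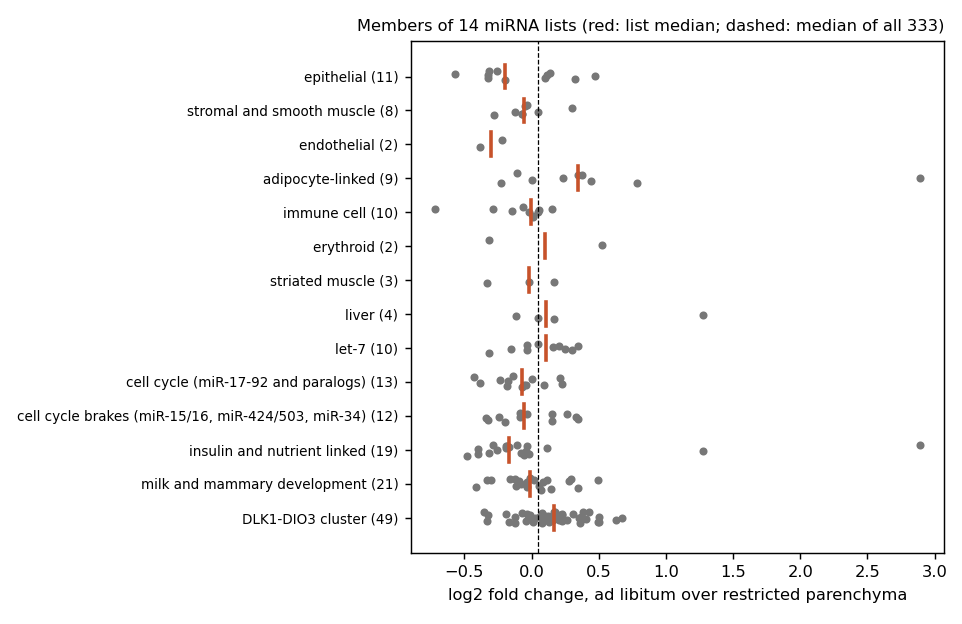
Log2 fold change of ad libitum over restricted parenchyma (x axis) for the tested members of 14 miRNA lists (y axis, with the number tested), with the list median in red and the median of all 333 miRNAs as a dashed line. The list medians run from −0.30 for the endothelial list to 0.35 for the adipocyte-linked list, and the point at 2.89 is miR-378-2, listed at 0 in restricted 10.

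The same contrast was fitted in the 2 other sites with 6 samples per group. In the fat pad 50 of 305 miRNAs passed the threshold in limma (16.4%), 25 in each direction, and in the liver 0 of 308 passed, with 12 at an unadjusted p under 0.05. Over the 269 miRNAs tested in all 3 sites, the median standard error was 0.24 in parenchyma, 0.18 in the fat pad and 0.33 in the liver, and the median absolute log2 fold change was 0.17, 0.29 and 0.24 in that order. The median change needed over these miRNAs was 2.30-fold in parenchyma, 1.91-fold in the fat pad and 3.00-fold in the liver.

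Of the 50 miRNAs called in the fat pad, 47 were tested in parenchyma. There 3 of them, miR-378-1, miR-181c and miR-99a-5p, had an unadjusted p under 0.05, and 32 had a fitted change of the same sign as in the fat pad. The fat pad value lay outside the 95% interval of the parenchyma value for 29 of the 47 and inside it for 18, with the fat pad values chosen for their size. These counts leave out the error of the fat pad value, whose standard error had a median of 0.16. In the direct test of the difference, given below, 0 of the 47 passed the threshold. Only 2 of the fat pad changes were larger than the change needed for a lone call in parenchyma. MiR-130a had a log2 fold change of −0.39 (interval −0.91 to 0.13) in parenchyma against −1.02 in fat pad, and miR-26a −0.26 (interval −0.55 to 0.03) against −0.48. MiR-378-1 was at 1.00 (interval 0.27 to 1.72) in parenchyma against 0.84 in fat pad.

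**Figure D5:**
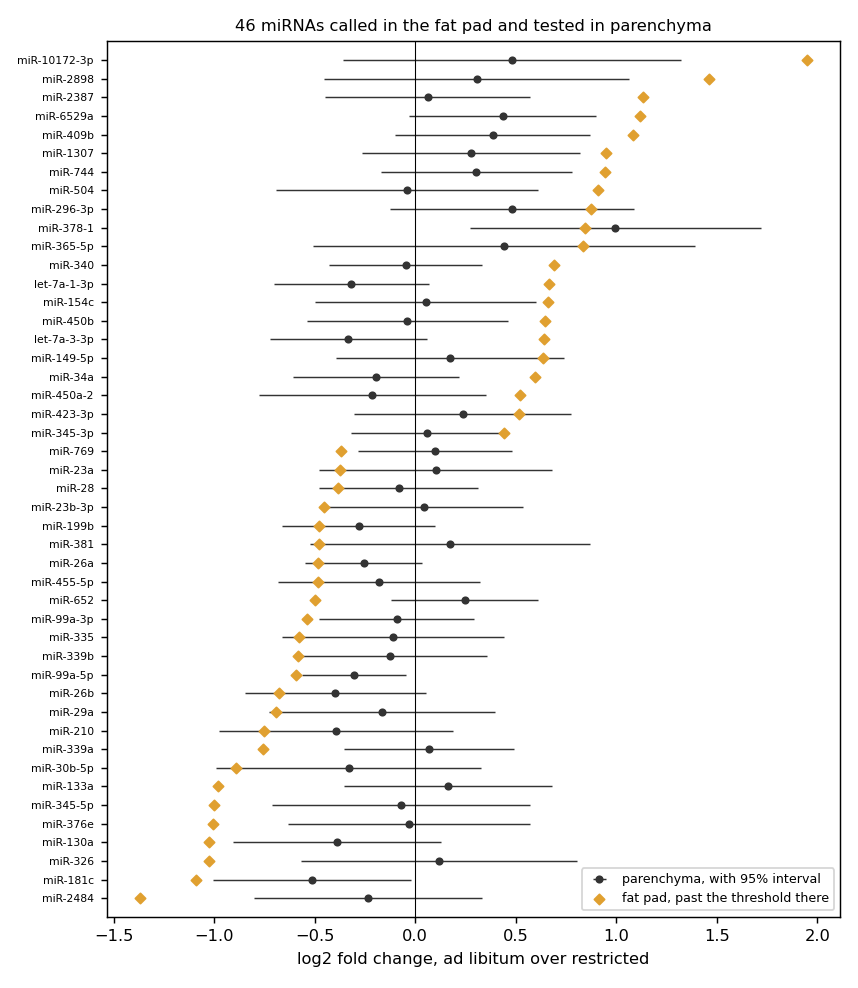
Log2 fold change of ad libitum over restricted (x axis) for 46 miRNAs (y axis) that passed the threshold in the fat pad and were tested in parenchyma, with the parenchyma value and its 95% interval as black points and lines and the fat pad value as yellow diamonds. MiR-378-2 is left out because it is listed at 0 in restricted 10. The parenchyma points lie nearer to 0 than the diamonds for most miRNAs, and the parenchyma interval crosses 0 for all but miR-378-1, miR-181c and miR-99a-5p.

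The difference of the feeding effect between sites was tested directly, with all samples treated as independent. For parenchyma minus fat pad, 0 of 336 miRNAs passed (0%), with 31 at an unadjusted limma p under 0.05 and a lowest adjusted p of 0.0843. For parenchyma minus liver, 0 of 343 passed (0%), with 3 at an unadjusted p under 0.05. The lowest p belonged to the passenger strand let-7a-1-3p, whose log2 fold change was −0.32 in parenchyma against 0.67 in the fat pad, so that the sites differed by −0.99 ± 0.24 (SE). It passed after rescaling to the same sum, as did the copy let-7a-3-3p. Without parenchyma ad libitum 7, 1 miRNA passed, miR-339a, which with all samples had a log2 fold change of 0.07 in parenchyma against −0.76 in fat pad. With all samples kept and the deposited scaling, the feeding effect was not shown to differ between parenchyma and fat pad for any single miRNA.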

How the data were processed

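The authors ligated adaptors to total RNA, reverse transcribed and amplified it. The submitters' processing notes name DESeq2, Trim Galore, FastQC and bcl2fastq, with no version. Build, aligner and miRNA database of the deposited table were not given in the sources used here: those in the paper's methods describe its own benchmark runs of several tools. Deposited values are normalised read counts per mature miRNA (unit recorded as other), which the authors scaled by a size factor for every library. They were whole multiples of a step, within 0.01, and the steps gave the estimated reads. No count model was run. The authors' own columns of fold changes and p-values were left aside.

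Feeding groups were compared over miRNAs with a mean of at least 10 by limma (version 3.58.1, R 4.3.3) on log2(value + 1) with a variance trend, and an adjusted p of at most 0.05 was a call. Fold changes on this scale understate those of low miRNAs. Quality weights were limma's, and the block fit used statmod 1.5.0. Single values were compared by exact permutation (Python 3.11.15). The fits were tested on simulated data. The closest pair of libraries within a feeding group still differed beyond counting error, with a chi-square of 234 per degree of freedom.

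MiRNAs were named by rule: the 10 lowest p, the 5 largest changes in each direction and the 5 smallest and 5 largest standard errors at a mean of at least 50, the 10 most abundant, and up to 4 examples per list (the most abundant and the lowest p), with numbered copies taken once. Names outside the rule were chosen after their values were seen. The comparison, members and lists were chosen with earlier results of these data known. Alternatives were other pseudocounts, filters, scalings, weights, covariates, sample sets and each sample left out. Some miRNAs are not reported here.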

Additional observations from a re-analysis of the deposited data

Results flagged for a closer look

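Within a group of 6, a sample was listed here when its gap to the nearest other sample took up an unusually large share of the group's range (Dixon's 95% criterion), which chance gives in about 1 in 20 groups. Over all 333 tested miRNAs this held for 46 groups in ad libitum and 29 in restricted samples, and the far sample was ad libitum 7 in 41 and restricted 10 in 17 of them. Among the values of the report, ad libitum 7 was low for miR-1306 (83.8), miR-1247-5p (11.3) and miR-181a-1 (14337) and high for miR-451 (1757). Restricted 10 was high for miR-320a (4558), listed at 0 for miR-378-2, and low for miR-199a-1-3p (101516), miR-199b (17545), miR-497 (1129) and miR-424-3p (126). It was also low in the mean log2(value + 1) of the adipocyte-linked list (6.01), which contains miR-378-2, and on the first principal component (−23.8). Restricted 13 was high for miR-31 (1913) and miR-106b (1252). Restricted 5 had the highest share of the top miRNA, 22.6%, and restricted 16 the lowest score on the second component among restricted samples, −9.49.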

How the results depend on the processing

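The count of calls was 0 in 26 of 28 alternatives, each single sample left out included. It was 6 with sample quality weights and 7 with ad libitum 7 and restricted 10 left out together, which was chosen after seeing the data, as were summed copies and rescaling without ad libitum 7. The median log2 change needed was 1.66 with no filter, 0.98 with quality weights, 1.74 with the 3 control samples in the fit (0 miRNAs then had an unadjusted p under 0.05) and 1.73 with only samples whose title ends in PPP, and 1.20 to 1.42 with 1 sample left out. The cause was not tested. The mean number of detected miRNAs differed by 4.17 at a minimum value of 10, with an exact permutation p of 0.0563 (adjusted 0.150). At the minimum value of 2 it differed by −4.13 to 1.67 with 1 sample left out. The difference on the first component was −4.10 to 5.40 with 1 sample left out, negative only without restricted 10.

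Of 62 named miRNAs, 49 kept their sign in every alternative run. After rescaling to the same sum the log2 fold change was 0.00915 for miR-143, 0.010 for miR-199a-1-3p, 0.029 for miR-199a-1-5p, 0.0031 for miR-221, 0.013 for miR-181a-1, 0.062 for miR-1 and 0.042 for miR-497. After rescaling without ad libitum 7 it was 0.076 for miR-199a-1-5p, 0.032 for miR-221, 0.18 for miR-181a-1 and 0.033 for miR-497. With quality weights it was −0.095 for miR-411a and 0.15 for miR-181a-1. With titles ending in PPP it was 0.0020 for miR-199a-1-3p, 0.011 for miR-221, −0.14 for miR-2419-5p, 0.050 for miR-1 and 0.052 for miR-424-5p. With the epithelial level as covariate it was −0.00730 for miR-2419-5p and 0.044 for miR-1. Without both ad libitum 7 and restricted 10 it was 0.074 for miR-181a-1, −0.068 for miR-146b and −0.054 for miR-215. With 1 sample left out it ran from −0.19 to 0.0099 for miR-199a-1-3p, −0.15 to 0.016 for miR-199a-1-5p, −0.050 to 0.28 for miR-411a, −0.22 to 0.38 for miR-2419-5p, −0.15 to 0.078 for miR-181a-1, −0.025 to 0.35 for miR-146b, −0.32 to 0.18 for miR-1, −0.034 to 0.095 for miR-192, −0.043 to 0.32 for miR-215 and −0.14 to 8.24e-05 for miR-497.

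No paired analysis was possible because ad libitum and restricted parenchyma share no number. Each number carried the same treatment at every site. At each site the log2 values were first taken as deviations from the mean of their feeding group. Between sites, the deviations of same-numbered samples correlated by −0.14 to 0.59 for fat pad (293 miRNAs) and −0.15 to 0.46 for liver (287 miRNAs). These are not correlations of the whole profiles. In the fat pad, parenchyma samples 6, 10 and 16 correlated best with their own number (0.58, 0.59 and 0.54). In the liver, 10 and 13 did so (0.26 and 0.46), and the other numbers did not. Whether the numbers pair samples of 1 animal is thus not settled, and the main between-site fits treated all samples as independent. With the number as a replicate block in limma, 0 miRNAs differed in feeding effect between parenchyma and fat pad (lowest adjusted p 0.0577), and 0 between parenchyma and liver. For the fat pad the count was 2 after rescaling, 2 after rescaling with the block, 0 to 1 with 1 sample left out (1 without parenchyma ad libitum 7), 2 without number 7 at both sites and 2 without number 10 at both sites.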
